A study of Mus musculus with 7 samples.

Results

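Macrophages take up, move and store lipid through a small set of proteins, and 10 genes for such proteins were followed here: 3 for uptake (Cd36, Msr1, Lpl), 3 for cholesterol efflux (Abca1, Abcg1, Apoe), and Nr1h3, Npc2, Fabp4 and Fabp5 for sensing, lysosomal release and intracellular carriage. All 10 were measured, among 22180 genes in all. Each gene is read from the probe set that carries its symbol alone and, where there were several, from the one with the highest mean over the 7 arrays. That mean takes no account of genotype. The genes themselves were chosen by their lipid roles and with the genotype differences of these arrays already known, so their differences are given as descriptions and support nothing by themselves.

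Lipoproteins and fatty acids enter macrophages through scavenger receptors and after hydrolysis of triglyceride by lipoprotein lipase. Cholesterol freed in lysosomes is handed on to other membranes, stored as ester in droplets or exported to apolipoproteins. Oxysterols that build up with cholesterol activate the nuclear receptor LXR, which induces export genes, while fatty acid ligands activate PPAR receptors, which induce genes of fatty acid uptake and carriage. In the gut wall, resident macrophages clear dying cells and bacteria and so meet a large lipid load.

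The cells were macrophages of the colon lamina propria of mice, sorted as CD45+, CD11b+, CD64+, MHC class II+ and Ly6C-. The mice had received 5% dextran sulphate sodium (DSS), which injures the colon epithelium, for 5 days and then plain water for 3 days. Every mouse was Rictor fl/fl, that is, carried loxP-flanked alleles of the gene for an essential subunit of the kinase complex mTORC2. The 4 LysM+/cre samples came from mice carrying 1 LysM cre allele, which drives the recombinase from the lysozyme gene Lyz2 in macrophages, monocytes and neutrophils, and the 3 LysM+/+ samples from mice without cre. No group had cre without floxed Rictor, so Rictor loss, cre and its insertion cannot be told apart. The design text excludes technical replicates, but neither it nor the labels state the animals' age or whether a sample was 1 mouse or a pool. The SDs below measure the spread between these samples. Each SE comes from the limma fit, which moves a gene's variance toward that of all genes. It can thus be smaller or larger than these samples alone would give.

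Values are log2 intensities, on which a difference of 1 is a doubling of signal, and levels of different probe sets are not compared. Array medians lay between 5.16 and 5.22. Rictor itself did not separate the labels (7.76, 7.74 and 7.80 without cre and 7.72, 7.76, 8.25 and 7.80 with cre, a difference of 0.12 ± 0.13, SE). Whether its probe set reaches the floxed part of the gene is unknown here, so it does not check the labels. All 13 macrophage and sorting markers lay above the median gene (5.55), with list means of 11.12 to 11.54 on the 7 arrays. Of the 13, 7 were higher and 6 lower with cre. Fcgr1, the gene of CD64, differed by 0.97 ± 0.26 (SE) and Itgam, the gene of CD11b, by 0.53 ± 0.19 (SE). The genotypes overlapped for both, and the smallest limma adjusted p of the list was 0.362. LysM+/+ array 2 stood apart, with the lowest neutrophil and monocyte marker means (5.61 and 7.01) and the highest mean of perivascular resident macrophage markers such as Lyve1 (10.64). LysM+/cre array 3 had the highest neutrophil mean, 8.55. In bulk samples, fewer cells of a type and less RNA per cell cannot be told apart.

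Promoter sequence from RefSeq (GRCm38.p6) was on hand for 5 of the 10 genes, Abca1, Cd36, Apoe, Nr1h3 and Npc2, with 8 entries in all. The stretches of Abca1 and Cd36, known LXR and PPAR targets, are shown because their signals had their highest and lowest values on the same arrays the opposite way round, as described below. Each line gives the 100 bases before the transcription start on the gene's own strand, at chr4:53159896-53159995 (minus strand) for Abca1 and at chr5:17835897-17835996 (minus strand) for Cd36. Capitals mark the closest match to the response element.
Abca1: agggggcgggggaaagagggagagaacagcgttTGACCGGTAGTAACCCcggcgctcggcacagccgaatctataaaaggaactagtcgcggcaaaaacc
Cd36: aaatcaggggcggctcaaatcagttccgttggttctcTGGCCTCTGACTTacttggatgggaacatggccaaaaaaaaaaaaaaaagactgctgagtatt

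LXR binds with its partner RXR to direct repeats spaced by 4 bases, searched as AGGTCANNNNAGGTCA, and PPAR with RXR to repeats spaced by 1 base, searched as AGGTCANAGGTCA, on both strands of the 250 bases before each start. The Abca1 match, at positions -67 to -52 from the start, reads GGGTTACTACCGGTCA on the other strand and differs from the repeat at 3 of its 12 fixed bases. A match at least as close was present in 18.5% of 32851 promoter windows. In Cd36 the match at -63 to -51 reads AAGTCAGAGGCCA on the other strand and differs at 2 fixed bases. A match at least as close was present in 3.24% of windows. The closest match to the LXR repeat had 4 or 5 differences in Apoe, Nr1h3 and Npc2, and 70.6% of windows held one with at most 4. These matches describe letters in a window and were not tested for binding.

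Cd36, the fatty acid translocase and receptor for oxidised lipoproteins, had by far the widest spread of the 10. Its signal was 8.56, 11.66 and 9.53 on the LysM+/+ arrays and 8.01, 7.09, 6.003 and 8.72 on the LysM+/cre arrays. LysM+/+ array 2 was the highest of all and LysM+/cre array 3 the lowest, and the genotypes overlapped, since LysM+/cre array 4 lay above LysM+/+ array 1. The means were 9.92 ± 1.59 (SD, n = 3) and 7.46 ± 1.18 (SD, n = 4), a difference of -2.46 ± 0.88 (SE), or 5.50-fold less signal with cre. By size this was the difference ranked 3 among 22180 genes, and the range of Cd36 over the 7 arrays, 5.66, ranked 9. Without LysM+/+ array 2 the difference was -1.59, and without that array and LysM+/cre array 3 it was -1.10.

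Msr1, scavenger receptor A, takes up modified lipoproteins as Cd36 does but ran the other way. Msr1 gave 10.35, 9.27 and 9.66 on the LysM+/+ arrays, against 9.90, 10.48, 10.30 and 10.14 on the LysM+/cre arrays. The lowest array for Msr1 was LysM+/+ array 2, where Cd36 was highest, and the genotypes overlapped through LysM+/+ array 1. The difference was 0.44 ± 0.26 (SE), which was 0.74 without LysM+/+ array 1 and 0.20 without LysM+/+ array 2.

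Lpl, the secreted lipase that frees fatty acids from lipoproteins, gave 5.87, 5.96 and 5.75 without cre and 6.60, 5.96, 5.55 and 7.21 with cre. The 3 LysM+/+ arrays lay within 0.21 of each other, while the LysM+/cre arrays spanned 1.65 and lay on both sides of them. LysM+/cre arrays 4 and 1 were the high ones. The difference of 0.47 ± 0.37 (SE) was 0.18 without LysM+/cre array 4 and 0.73 without LysM+/cre array 3. A dimmer second probe set differed by 0.26, and its highest value, 4.22, was also on LysM+/cre array 4.

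**Figure D1:**
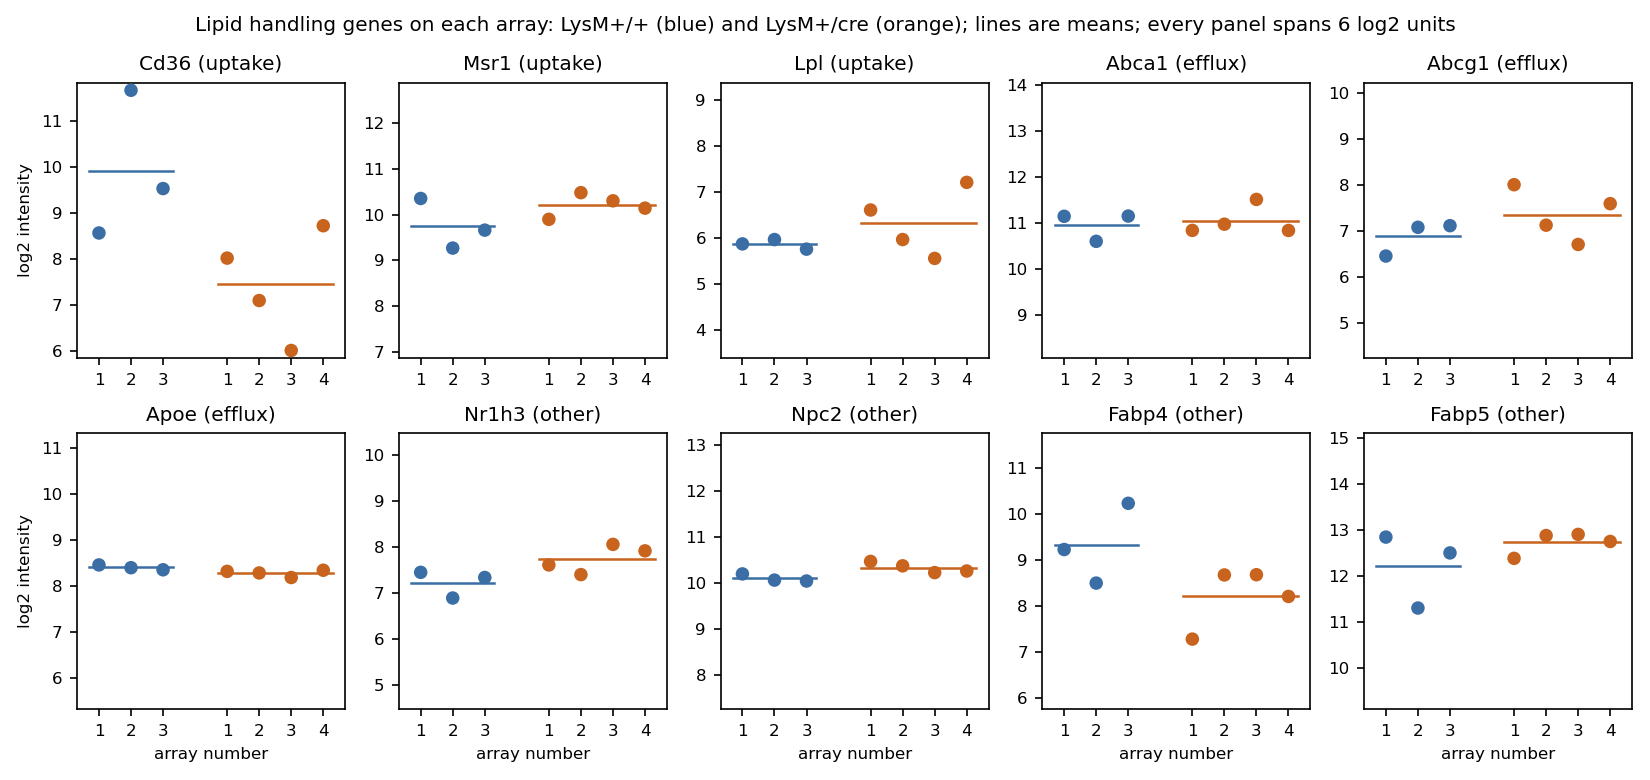
Log2 intensity (vertical axis) of the 10 genes on each of the 3 LysM+/+ (blue) and 4 LysM+/cre arrays (orange), numbered as labelled, with genotype means as lines and every panel spanning 6 log2 units. Cd36 runs from 11.66 to 6.003, whereas Apoe and Npc2 hardly leave their means.

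Among the efflux genes, Abca1 encodes the transporter that loads cholesterol and phospholipid onto lipid-poor apolipoprotein. Its signal was 11.15, 10.60 and 11.15 without cre and 10.84, 10.97, 11.51 and 10.84 with cre. LysM+/cre array 3 was highest and LysM+/+ array 2 lowest, the reverse of Cd36, and the genotypes overlapped throughout. The difference of 0.075 ± 0.21 (SE) turned to -0.11 without LysM+/+ array 2 and to -0.082 without LysM+/cre array 3, so it has no stable sign.

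Abcg1, the transporter that passes cholesterol to mature high density lipoprotein, gave 6.46, 7.08 and 7.12 without cre and 8.01, 7.13, 6.71 and 7.60 with cre. As for Lpl, LysM+/cre arrays 1 and 4 were the highest, and the other arrays of both genotypes mixed. The difference was 0.48 ± 0.33 (SE) and 0.26 without LysM+/+ array 1 or without LysM+/cre array 1.

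Apoe, the apolipoprotein that macrophages secrete and that accepts cholesterol, was the steadiest of the efflux genes. It gave 8.45, 8.39 and 8.34 without cre and 8.31, 8.28, 8.18 and 8.33 with cre. Every LysM+/cre array lay below every LysM+/+ array, by a narrow margin. The difference of -0.12 ± 0.063 (SE) amounts to 1.09-fold, and it stayed between -0.15 and -0.088 when any array was left out.

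To set uptake against efflux array by array, each gene was expressed as its deviation from its own mean over the 7 arrays and the deviations were averaged over the 3 genes of each arm. The uptake mean was 0.041, 0.75 and 0.096 on LysM+/+ arrays 1 to 3 and -0.046, -0.38, -0.93 and 0.47 on LysM+/cre arrays 1 to 4. For efflux the mean was -0.15, -0.14 and 0.040 on the LysM+/+ arrays and 0.22, -0.038, -0.031 and 0.092 on the LysM+/cre arrays. The efflux mean thus varied far less between arrays than the uptake mean. This did not hold for every gene, since Abcg1 had a range of 1.55, against 1.21 for Msr1 and 1.65 for Lpl. Opposite deviations also cancelled in the efflux mean, such as 0.50 for Abca1 and -0.45 for Abcg1 on LysM+/cre array 3.

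Uptake minus efflux came to 0.19, 0.89 and 0.055 without cre and to -0.27, -0.34, -0.90 and 0.38 with cre. The balance was above 0 on all 3 LysM+/+ arrays and below 0 on 3 of 4 LysM+/cre arrays, and LysM+/cre array 4 lay above LysM+/+ arrays 1 and 3. The genotype means were 0.38 ± 0.45 (SD, n = 3) and -0.28 ± 0.52 (SD, n = 4), a difference of -0.66. Uptake alone differed by -0.52 and efflux alone by 0.14. The efflux difference turned sign with medians over the 3 genes (-0.071) and with each gene scaled by its SD (-0.074 SD units).

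The balance depended on how the genes were weighted. With uptake read from Msr1 and Lpl only, a choice made after the values were seen, uptake differed by 0.46 and uptake minus efflux by 0.31. With each gene scaled by its SD over the arrays, uptake differed by 0.16 and uptake minus efflux by 0.23 SD units. With medians over the 3 genes uptake differed by -0.0067, and uptake minus efflux, at 0.064, took its sign from the turned efflux value. The negative balance was thus not kept under these 3 scorings, of which the scaled and median ones changed both arms. The 3 uptake genes did not differ in a common direction, and neither did the 3 efflux genes. Without LysM+/+ array 2 the difference in balance was -0.40, and without it and LysM+/cre array 3 it was -0.20.

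**Figure D2:**
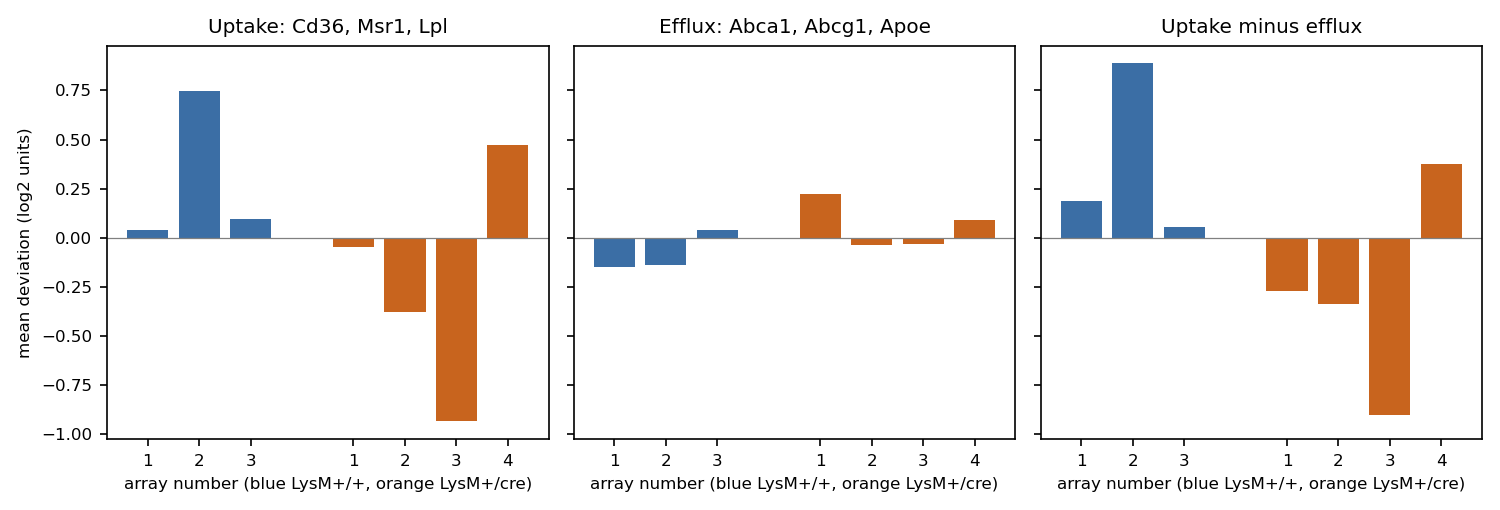
Mean deviation from each gene's average, in log2 units, for the uptake genes, the efflux genes and uptake minus efflux on each array (bars, blue LysM+/+ and orange LysM+/cre). Uptake spans 0.75 to -0.93, efflux only 0.22 to -0.15, and LysM+/cre array 4 stands with the LysM+/+ arrays in the balance.

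Nr1h3 encodes LXR alpha, the oxysterol receptor that induces Abca1, Abcg1 and Apoe. Nr1h3 gave 7.45, 6.89 and 7.34 on the LysM+/+ arrays and 7.61, 7.40, 8.06 and 7.92 on the LysM+/cre arrays. LysM+/+ array 2 was lowest and LysM+/cre array 3 highest, as for Abca1, and the genotypes overlapped only through LysM+/cre array 2 at 7.40 against LysM+/+ array 1 at 7.45. The means of 7.22 ± 0.30 (SD, n = 3) and 7.75 ± 0.30 (SD, n = 4) differed by 0.52 ± 0.20 (SE), a 1.43-fold difference that was 0.35 without LysM+/+ array 2. Abca1, Abcg1 and Apoe, the genes it is known to induce, differed by 0.075, 0.48 and -0.12.

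Npc2, the soluble lysosomal protein that passes cholesterol to Npc1 in the lysosomal membrane, gave 10.19, 10.06 and 10.04 without cre and 10.47, 10.37, 10.22 and 10.26 with cre. All LysM+/cre arrays lay above all LysM+/+ arrays, again narrowly. The difference was small and even, 0.23 ± 0.081 (SE), or 1.17-fold, and lay between 0.19 and 0.28 with any single array omitted. For Npc1 the genotype means were 9.04 and 8.82, which differed by -0.22 ± 0.15 (SE).

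Fabp4 and Fabp5 encode cytosolic fatty acid binding proteins of macrophages and adipocytes, and Fabp4 is also strong in capillary endothelium. The genes are neighbours in the GRCm38.p6 RefSeq annotation, with 2 protein-coding genes, Pmp2 and Fabp9, between them. Their signals did not run together. Fabp4 was 9.22, 8.49 and 10.23 without cre and 7.27, 8.67, 8.68 and 8.20 with cre. LysM+/+ array 3 was highest and LysM+/cre array 1 lowest, and the genotypes overlapped through LysM+/+ array 2. The means of 9.32 ± 0.87 (SD, n = 3) and 8.21 ± 0.66 (SD, n = 4) differed by -1.11 ± 0.49 (SE), or 2.16-fold less with cre, and by -0.65 without LysM+/+ array 3.

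Fabp5 was 12.84, 11.30 and 12.50 without cre and 12.38, 12.87, 12.90 and 12.75 with cre. Apart from LysM+/+ array 2, the 6 arrays lay within 0.52 of each other. The difference of 0.51 ± 0.36 (SE) was accordingly 0.056 without LysM+/+ array 2, and it was 0.83 without LysM+/+ array 1. The gene has 4 probe sets with its symbol, which differed by 0.51, 0.49, 1.07 and 0.72. On all 4 the lowest array was LysM+/+ array 2. Fabp5 has processed pseudogene copies in the mouse genome, and how far its probe sets share signal with them is unknown here, so its values are uncertain.

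**Figure D3:**
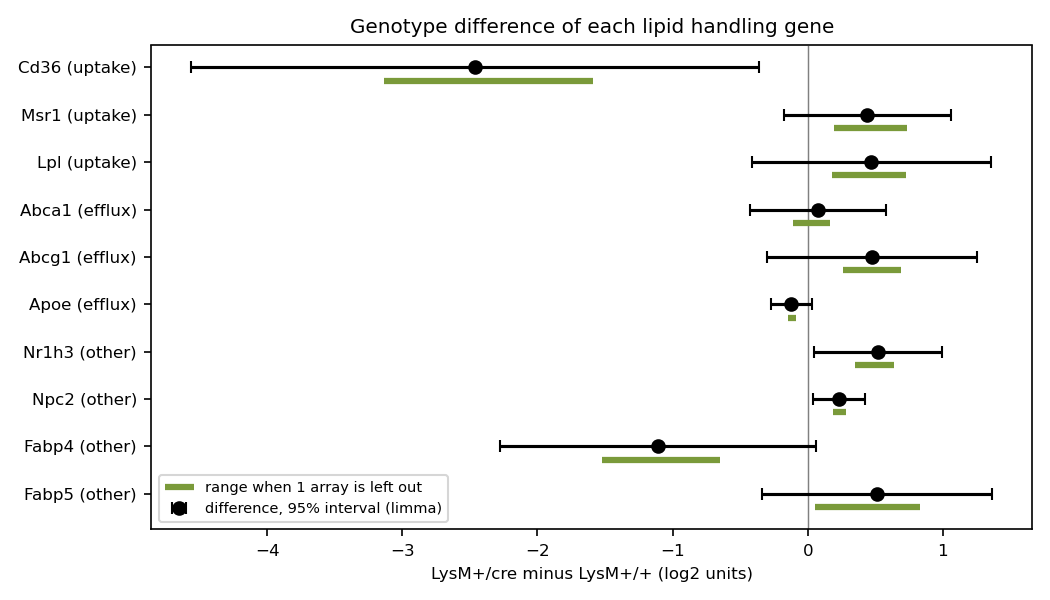
Difference between LysM+/cre and LysM+/+ means in log2 units (horizontal axis) for the 10 genes, with limma's 95% interval (black bars) and the range of the difference when 1 array was left out (green bars). Cd36 at -2.46 and Fabp4 at -1.11 are the large ones, and the green bar of Abca1 crosses 0.

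In limma's fit across all 22180 genes, no member passed an adjusted p of 0.05, and the adjusted p of the 10 lay between 0.408 (Npc2) and 0.909 (Abca1), with 0.414 for Cd36. No gene of the array passed either (0.0%), and the smallest adjusted p of any gene was 0.195. At an unadjusted p under 0.05, where 11.5% of all genes lay (6.56% higher and 4.93% lower with cre), there were 3 members, Cd36, lower, and Nr1h3 and Npc2, higher. With a 1.5-fold difference required as well, which 2.26% of all genes met, Cd36 remained. For 2 of 10 members the genotypes did not overlap, Npc2, higher, and Apoe, lower, against 8.79% of all genes (5.23% higher and 3.56% lower). Both separations were narrow. The nearest arrays of the genotypes were 8.34 and 8.33 for Apoe and 10.19 and 10.22 for Npc2. Array medians themselves ranged from 5.16 to 5.22. The background counts moved with the scaling. Over all genes, 1161 were higher and 789 lower without overlap, against 3210 and 531 with array medians set equal and 2028 and 937 with quantile normalization. At an unadjusted p under 0.05, 1456 were higher and 1093 lower, against 2001 and 796 with array medians set equal. These counts are read no further, because the genes were picked with this comparison known. Of the members, 7 were higher and 3 lower with cre, and their median difference was 0.34 against 0.0044 over all genes. Of all 22180 genes, 11397 (51.4%) were higher with cre. With array medians set equal it was 13582, and the median difference over all genes was 0.040.

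The wider lipid pathway was described from 6 further lists with 100 genes, of which 90 were measured. Of these, 43 were higher and 47 lower with cre, with a median difference of -0.044. The share to set beside this count and those of each list is the 51.4% of all genes that were higher. That share moves with the scaling. No listed gene passed the adjusted threshold in limma, and 11 of 90 (12.2%) lay under an unadjusted p of 0.05, close to the 11.5% of all genes. The genes named next are those of smallest p in each list.

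Among scavenger and lipoprotein receptors and regulators of lipoprotein lipase, 9 of 17 were higher and 8 lower (median 0.053). The genotypes did not overlap for 4 of them, where 8.79% of all genes did not, a share that moves with the scaling as given above. Lrpap1, the chaperone of LDL receptor family proteins, differed by 0.47 ± 0.15 (SE), and Scarb1, the receptor for high density lipoprotein, by 0.38 ± 0.15 (SE). Cd68, a lysosomal glycoprotein of macrophages, differed by -0.20 ± 0.079 (SE). The scavenger receptor Colec12, outside the naming rule and singled out after its values were seen, showed 7.66, 9.04 and 7.33 without cre and 7.26, 6.94, 6.71 and 7.27 with cre. Like Cd36 it was highest on LysM+/+ array 2 and lowest on LysM+/cre array 3, with a difference of -0.97 ± 0.40 (SE).

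Of the partners and targets of LXR and other sterol efflux genes, 8 of 15 were higher and 7 lower (median 0.037). Srebf1, the LXR-induced regulator of fatty acid synthesis, had genotype means of 7.24 and 7.63, which differed by 0.39 ± 0.14 (SE). Ch25h, which makes an oxysterol, differed by -0.56 ± 0.24 (SE). Nr1d1, a repressor of the circadian clock, had the smallest p of the 6 lists (limma adjusted p = 0.328) at -1.01 ± 0.18 (SE), with 7.17, 7.93 and 7.56 without cre and 6.43, 6.76, 6.50 and 6.46 with cre. Its genotypes were well apart.

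Lysosomal lipid release genes were 7 higher and 5 lower of 12 (median 0.034). Stard3, a late endosomal cholesterol carrier, gave 7.77, 7.68 and 7.28 without cre and 8.06, 7.86, 7.93 and 7.93 with cre, which did not overlap. Its difference was 0.37 ± 0.12 (SE). Osbpl1a, a sterol binding protein, differed by -0.13, and Npc1 is given above.

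Lipid droplet and lipolysis genes were 9 higher and 10 lower of 19 (median -0.064). Lpin2, a phosphatidate phosphatase of triglyceride synthesis, differed by -0.39 ± 0.13 (SE), Acsl5, an acyl-CoA synthetase, by 0.38 ± 0.14 (SE), and Mgll, monoglyceride lipase, by -0.16 ± 0.095 (SE). In the PPAR and fatty acid oxidation list 14 of 19 were lower and 5 higher (median -0.13). Ppargc1b, a coactivator of oxidative metabolism, differed by -0.42 ± 0.15 (SE), the acyl-CoA thioesterase Acot2 by -0.25 ± 0.093 (SE) and the receptor Ppard by 0.29 ± 0.15 (SE).

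The 8 other fatty acid binding proteins were 5 higher and 3 lower (median 0.072). Those of smallest p, Fabp3, Fabp12 and Fabp6, differed by 0.18, 0.13 and 0.11. None of the 8 lay under an unadjusted p of 0.05.

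**Figure D4:**
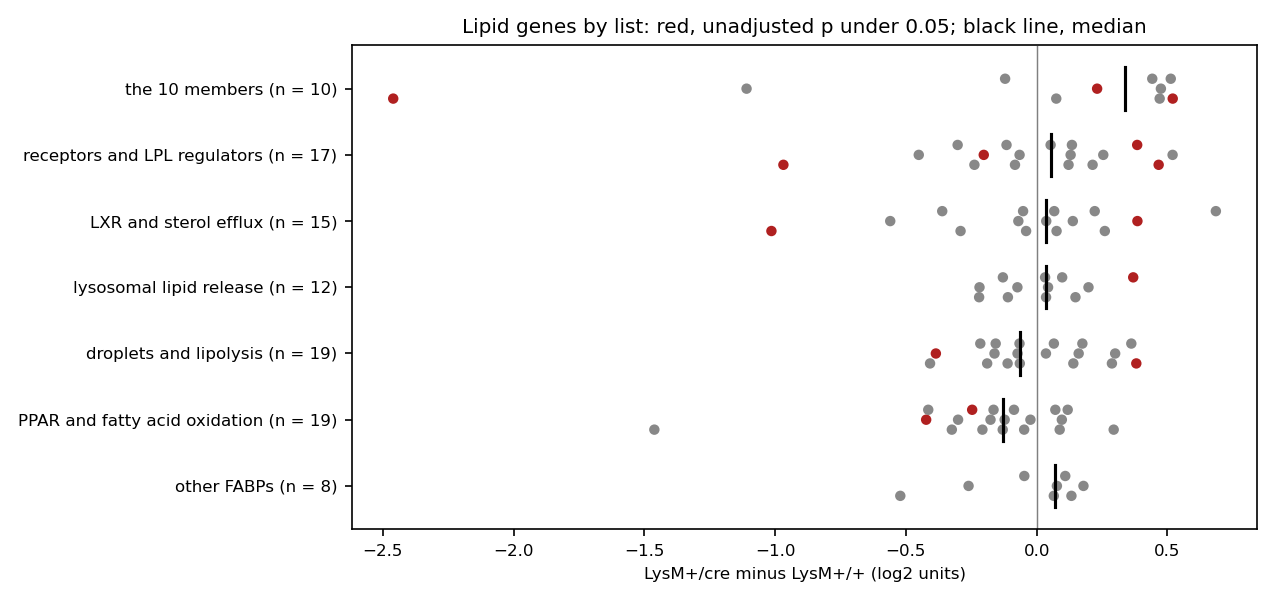
Difference between LysM+/cre and LysM+/+ in log2 units (horizontal axis) for each member and each gene of the 6 further lipid lists (points, red where limma's unadjusted p was under 0.05), with list medians as black lines. The medians of the 6 lists lie between -0.13 and 0.072, and Cd36 at -2.46 lies beyond every other lipid gene.

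Some markers of other cells shared their highest or lowest arrays with some of these genes. Counts of markers higher or lower stand beside 51.4% of all genes higher with cre, a share that moves with the scaling. For Cd36, the perivascular resident macrophage markers were lower with cre in 6 of 6 measured. Their list means were 9.30 to 10.64 without cre and 8.55 to 9.38 with cre. They followed Cd36 only in part. Among LysM+/cre arrays, array 2 had the highest marker mean (9.38) but Cd36 at 7.09. LysM+/+ array 1 was above LysM+/+ array 3 in this mean (9.71 against 9.30) and below it in Cd36 (8.56 against 9.53). Lyve1 was 9.76, 11.19 and 8.23 without cre and 7.31, 9.36, 7.46 and 7.85 with cre. The neutrophil markers were higher with cre in 10 of 10, with means of 5.61 to 7.45 without cre and 6.49 to 8.55 with cre. Their mean was lowest on the array with most Cd36 signal and highest on the one with least, and Fabp5 had its lowest and highest values on those same arrays in the same order as the neutrophil mean. The sort for CD64+ MHC class II+ cells is meant to leave out neutrophils and can hold perivascular macrophages. How far it left neutrophils out is unknown here, and 1 of the 10 neutrophil markers lay below the median gene. The part of neutrophils and perivascular macrophages in the Cd36 and Fabp5 values was not tested.

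For Fabp4, endothelial markers were lower with cre in 11 of 12, with means of 5.60 to 6.31 without cre and 5.73 to 5.85 with cre, and 5 of the 12 lay below the median gene. The sort for CD45+ cells is meant to leave out endothelial cells, and how far it did is unknown here. Cdh5, which defines endothelium, was 6.94, 6.18 and 8.15 without cre and 5.51, 7.13, 6.90 and 6.20 with cre. Fabp4 was highest on LysM+/+ array 3, as were 9 of the 12 markers. It was lowest on LysM+/cre array 1, as were 3 of the 12, Cdh5 among them, while the list mean was lowest on LysM+/+ array 2. Pecam1, which leukocytes also express, went the other way, with a difference of 0.91 and its highest value, 9.39, on LysM+/cre array 1. The part of endothelial cells in the Fabp4 value was not tested. The same sort is meant to leave out adipocytes, which also express Cd36, Lpl and Fabp4. Their markers had list means of 5.19 to 5.32 without cre and 5.16 to 5.34 with cre. Of the 8, 5 lay below the median gene.

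Lpl and Abcg1 were highest on LysM+/cre arrays 1 and 4, as were 2 defining monocyte genes singled out after their values were seen. Ly6c2 was 6.87, 7.15 and 7.70 without cre and 9.30, 7.69, 7.87 and 8.48 with cre, and Ccr2 was 6.21, 8.21 and 7.53 against 9.49, 8.21, 6.82 and 9.03. The list as a whole did not follow these arrays, since its mean on LysM+/cre array 3 (8.83) was above that on LysM+/cre array 4 (8.77), and Chil3 (9.56) and Hp (10.97) were highest on LysM+/cre array 3, where Lpl was lowest. All 7 measured monocyte markers were higher with cre, with means of 7.01 to 8.16 without and 8.66 to 9.03 with cre. The sort took Ly6C- cells, a gate meant to leave out Ly6C+ monocytes, and how far it did is unknown here. Of the 7 measured monocyte markers, 0 lay below the median gene. The part of Ly6C+ monocytes in the Lpl and Abcg1 values was not tested. Dendritic cell marker means on LysM+/cre arrays 1 to 4 were 7.51, 6.53, 6.21 and 7.39, so arrays 1 and 4 led that genotype here too. Of all arrays, however, LysM+/+ array 3 had the highest dendritic cell mean (7.52), and Lpl was 5.75 there. The part of dendritic cells in these values was not tested either. Fibroblast and smooth muscle markers were lower in 8 of 10 (7.17 to 7.50 without cre, 6.68 to 7.18 with cre), epithelial markers in 10 of 11 (6.79 to 8.28 against 6.93 to 7.91), and dendritic cell markers in 5 of 7 (6.88 to 7.52 against 6.21 to 7.51). In the fibroblast and smooth muscle list and in the epithelial list, 0 of 10 and 0 of 11 markers lay below the median gene. Eosinophil and mast cell, T and NK cell, and B and plasma cell lists had means of 4.71 to 5.30, 4.74 to 4.86 and 5.71 to 6.23 over all arrays.

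**Figure D5:**
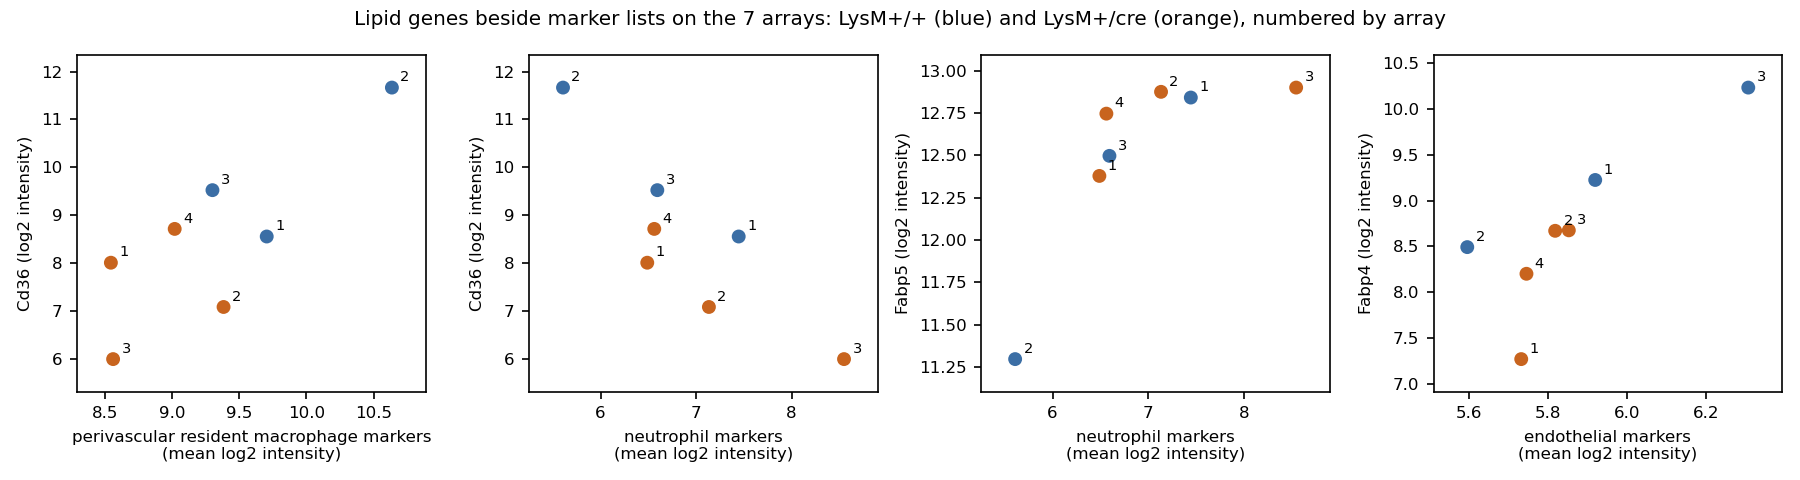
Log2 intensity of Cd36, Fabp5 and Fabp4 (vertical axes, Cd36 in a pair of panels) against the mean log2 intensity of a marker list (horizontal axes) on the 7 arrays, LysM+/+ in blue and LysM+/cre in orange, numbered by array. LysM+/+ array 2 has the most Cd36 (11.66), the most perivascular macrophage signal (10.64) and the least neutrophil signal (5.61), and LysM+/+ array 3 leads in Fabp4 (10.23) and endothelial markers (6.31).

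The genes of most similar profile were sought among 2019 genes that spanned at least 1 log2 unit and lay above the median gene. This was done for the 7 members that themselves spanned that much, so not for Abca1, Apoe and Npc2. The measure was Pearson correlation over the 7 arrays. These correlations describe 7 arrays that share genotype and cell make-up, and the largest of 2019 are high by selection. For Cd36 they were Gsn (0.990), which encodes the actin-severing protein gelsolin, Vps13c (0.990), a lipid transfer protein, Bin1 (0.990), a membrane-bending protein, Nav1 (0.988) and Reps2 (0.977). For Lpl they were Apol7c (0.951), Plxnc1 (0.938), Arhgef10 (0.921), Nxpe4 (0.920) and Cass4 (0.918). Abcg1 was closest to Arhgap4 (0.994), the tropomyosin Tpm4 (0.984), the lectin-like receptor Klra2 (0.980), the lipoprotein receptor Lsr (0.972) and 3830406C13Rik (0.968).

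Msr1 ran closest to the peptidase Anpep (0.960), Igfbp5 (0.958), the lipoprotein lipase cofactor Apoc2 (0.946), Slc13a3 (0.945) and the lysosomal sulphatase Galns (0.944). Apoc2 was 8.55, 7.27 and 7.75 without cre and 8.41, 8.74, 8.81 and 8.21 with cre. It was thus lowest on LysM+/+ array 2, as Msr1 was. For Nr1h3 the list was Myo1e (0.957), Slamf6 (0.951), Rrp7a (0.939), N4bp1 (0.939) and Trim13 (0.931). Fabp4 was closest to the chemokine gene Cxcl10 (0.986), the ubiquitin ligase gene Peli1 (0.986), Ints6 (0.981), Depp1 (0.979) and Stra6l (0.972). Fabp5 was closest to the membrane metalloproteinase gene Mmp14 (0.984), Il18bp (0.978), Zswim7 (0.977), the acute phase gene Saa3 (0.965) and the formyl peptide receptor gene Fpr2 (0.958). The Saa3 signal was 6.43 where Fabp5 was lowest, on LysM+/+ array 2, and 13.61 where it was highest, on LysM+/cre array 3. No gene was among the 5 nearest of more than 1 of the 7 members searched.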

How the data were processed

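The data were 1 table of 7 Affymetrix Mouse Gene 2.0 ST arrays. Per the series' design text, the authors made the deposited log2 intensities per probe set in Expression Console, and the submitters' processing notes add Transcriptome Analysis Console. Neither source gives versions, the summarisation method or the background correction. Array medians were nearly equal (5.16 to 5.22), so a shift shared by all genes would not be seen. Differences of dim or very bright probe sets may be compressed.

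Of 41345 probe sets, 23521 carried exactly 1 symbol in the platform annotation, 1814 several and 16010 none listed. Differences are LysM+/cre minus LysM+/+. Two-sided tests used limma 3.58.1 in R 4.3.3 (lmFit, eBayes), without covariate, filter or array weights, with Benjamini-Hochberg adjustment over 22180 genes at 0.05. The code was tested on simulated data. Arm scores were means of deviations, without a test. Members and lists were chosen with earlier results of these data known. Named list genes were those of an adjusted p under 0.05, otherwise up to 3 per list of smallest p. Alternatives were other scalings, a dim filter, mean of probe sets, variance models, array weights, replicate numbers as a block, other scoring and leaving out arrays. Figures were drawn with matplotlib 3.10.9.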

Additional observations from a re-analysis of the deposited data

Results flagged for a closer look

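The 4 LysM+/cre arrays were searched for an array far from the others in 31 results, namely the 10 members, the 3 genes of smallest p from each further lipid list, and the 3 arm scores. In 3 of these, all of them list genes, 1 array stood apart, with a gap to the nearest array, as a share of the group's range, above Dixon's 95% critical value for 4 samples, and about 1 group in 20 would do so by chance. For Osbpl1a the share was 1.00, since LysM+/cre array 1 gave 6.003 and the others an identical 6.15. Fabp6 also had a share of 1.00, with LysM+/cre array 3 at 4.42 and the others at an identical 4.47. Where 3 arrays are identical, any differing value on the remaining array gives a share of 1.00. The rate of 1 in 20 therefore does not apply to Osbpl1a and Fabp6. For Acsl5 it was 0.855, with LysM+/cre array 2 at 8.15 and the others at 8.45, 8.44 and 8.41. No member and no arm score met the criterion. It was not applied to the other listed genes or to the group of 3.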

How the results depend on the processing

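Of 160 values of the 10 members under 16 alternatives each, 156 kept their sign and stayed short of the adjusted threshold, the smallest adjusted p being 0.229 in limma. The other 4 turned sign: Abca1 at -0.11 without LysM+/+ array 2, at -0.082 without LysM+/cre array 3 and at -0.26 without both (0.17 without LysM+/+ array 3), and Fabp5 at -0.0026 without both. Some alternatives could not turn a sign, so the 156 are not independent checks. The dim filter and the variance models leave each difference unchanged, as does the mean of probe sets for members with 1 probe set. The replicate block gives the same differences as leaving out LysM+/cre array 4. Leaving out both arrays was chosen after seeing the data. With 1 array left out the uptake difference ranged from -0.75 to -0.28, efflux from 0.090 to 0.20, and uptake minus efflux from -0.88 to -0.40. With medians over the 3 genes of an arm uptake was -0.0067, efflux -0.071 and uptake minus efflux 0.064. With genes divided by their SD, uptake was 0.16, efflux -0.074 and uptake minus efflux 0.23. With Msr1 and Lpl only, a choice made after seeing the data, uptake was 0.46 and uptake minus efflux 0.31. The first 2 of these scorings reweight both arms and the last changes uptake only. No gene passed the adjusted threshold under any of 16 alternatives, and 337 to 808 passed 1.5-fold at an unadjusted p under 0.05 when 1 array was left out, against 501 with all arrays (178 higher, 323 lower, or 244 and 285 with array medians set equal). Same-numbered arrays share only a number (correlations of their deviations -0.11, 0.12 and 0.10). With the replicate number as a block, LysM+/cre array 4 has no partner and drops out of the difference. Uptake minus efflux was then -0.88, the value without LysM+/cre array 4, so it is no separate check. In the block fit 488 genes passed the loose criterion. The number of arrays limits precision, and signal over background cannot be read from this table.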

Other observations

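The deposited values hold many exact repeats. Of 22180 genes, 11930 (53.8%) had the same value on at least 2 of the 7 arrays to the last deposited digit, with 39.3% of genes above the median gene and 68.3% of the others. Among the 10 members this was so for 1, Lpl, at 5.96 on LysM+/+ array 2 and on LysM+/cre array 2, and among the 90 other lipid genes for 31. How the repeats arose was not tested.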
